A study of Mus musculus with 4 samples.

Results

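A set of 10 genes tied to Wnt signalling and to the barrier endothelium of the nervous system was followed across single endothelial cells of the mouse embryo: Foxq1, Foxf2, Mfsd2a, Slc2a1, Spock2, Lef1, Axin2, Apcdd1, Nkd1 and Zic2. They were taken by gene symbol, and all 10 are among the 31053 genes of the deposited counts. Of the 4 libraries, 2 came from miR-223-/- embryos (KO), which lack the microRNA miR-223, and 2 from wild-type embryos (WT), all at embryonic day 10.5. CD31+ and CD45- cells, which bear an endothelial surface marker and no marker of mature blood cells, had been sorted from the aorta-gonad-mesonephros region, which surrounds the dorsal aorta where the first blood stem cells arise. Droplet libraries of single cells (10x Genomics, 3' chemistry version 3) count unique molecular identifiers (UMIs), 1 for each captured RNA molecule. The labels give neither the extent of the deletion nor how many embryos make up a library. The p-values thus measure only the spread between libraries, which may be technical. Where the library is a block, that is the spread between libraries of a difference taken within each.

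In canonical Wnt signalling, a ligand bound to a Frizzled receptor and an LRP co-receptor keeps beta-catenin from being degraded, and beta-catenin then acts with TCF and LEF factors on target genes. Several of the targets are feedback inhibitors that dampen the same pathway. In the brain and spinal cord of the mouse, Wnt ligands made by neural cells act on ingrowing vessels, which then gain the transporters and the tight junctions of the blood-brain barrier. Among the 10 genes, Foxq1, Foxf2 and Zic2 encode transcription factors, Lef1 encodes a partner of beta-catenin, and Axin2, Apcdd1 and Nkd1 encode feedback inhibitors. Slc2a1 encodes the glucose transporter GLUT1, Mfsd2a encodes a lipid transporter of brain vessels, and Spock2 encodes a secreted proteoglycan.

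The genes lie on 8 chromosomes (GENCODE M21, mouse build GRCm38). Foxq1 and Foxf2 are neighbours on the plus strand of chromosome 13, at 31556134 to 31560976 and at 31625816 to 31631403. Slc2a1 and Mfsd2a both lie on chromosome 4, at 119108711 to 119137983 on the plus strand and at 122946850 to 122961188 on the minus strand. Sequences bearing on the genotype and on the Wnt pathway are the mature microRNA that the KO embryos lack, the 1 printable stretch of a member's transcript that pairs with its seed, and start-site windows of members with a TCF/LEF motif. Bases 2 to 8 of the microRNA, its seed, are in capitals, and so is the match to that seed in the 3' UTR of Nkd1 (1 of its 3 annotated transcripts with a 3' UTR, chr8:88594185-88594191, plus strand, GRCm38).
mmu-miR-223-3p: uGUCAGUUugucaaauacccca
Nkd1 site: gcctgagcAACTGACattctggg

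A match of the same kind was found in 1 of 4 annotated 3' UTRs of Apcdd1 and in none of those of the other 8 genes. The share of all 3' UTRs with such a match was not counted, so a match is not taken as a sign of a target. Windows from 250 bases before to 50 bases after an annotated start were at hand for 7 of the 10 genes, 10 windows in all (RefSeq, GRCm38.p6). They were searched on both strands for the TCF/LEF motif, taken as CTTTG followed by A or T and again by A or T. It occurred in 2 of the 10 windows, 1 of Spock2 and 1 of the 4 of Lef1, while 16.9% of all 32851 windows hold it. Both are shown with the motif in capitals, as genes whose levels are compared below: the window of Spock2 at chr10:60106007-60106306 and that of Lef1 at chr3:131156044-131156343, both on the plus strand, where the Lef1 window reads the motif on the opposite strand.
Spock2 window: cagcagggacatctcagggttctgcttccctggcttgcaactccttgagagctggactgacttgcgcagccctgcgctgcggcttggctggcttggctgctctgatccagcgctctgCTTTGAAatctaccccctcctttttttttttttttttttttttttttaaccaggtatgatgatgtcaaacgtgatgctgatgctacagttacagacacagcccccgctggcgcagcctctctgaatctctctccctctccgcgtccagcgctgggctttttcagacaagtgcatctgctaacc
Lef1 window: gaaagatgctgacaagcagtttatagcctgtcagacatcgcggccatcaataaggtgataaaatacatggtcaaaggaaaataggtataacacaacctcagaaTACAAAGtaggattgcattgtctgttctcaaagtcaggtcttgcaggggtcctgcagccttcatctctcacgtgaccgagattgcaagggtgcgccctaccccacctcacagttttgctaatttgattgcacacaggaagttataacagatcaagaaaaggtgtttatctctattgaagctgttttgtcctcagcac

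The libraries hold 109713066 and 167542930 UMIs in KO and 95158639 and 181682389 in WT, over 6119 and 10299 barcodes in KO and 3917 and 11186 in WT. Pairs of libraries share 8 to 28 barcode sequences. After filters, 19188 cells remained, with 18174 to 30152 UMIs in the median cell of a library. The host transcript of miR-223, F630028O10Rik, had 2.37 and 3.90 CPM (UMIs of a gene scaled to a common library total) in KO and 0.105 and 0.33 CPM in WT over all barcodes. A 3' tag can lie outside a deletion, so it checks no genotype label here.

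Endothelial cells were taken as those with at least 1 UMI of Cdh5, the adhesion protein VE-cadherin, and parted by whether they held a UMI of Foxq1. Foxq1-positive cells numbered 423 and 946 in KO and 262 and 958 in WT, among 3328 and 5343 Cdh5-positive cells in KO and 1943 and 6347 in WT. Foxq1 itself chose the cells; it stood at 119 and 144 CPM in KO and 125 and 137 CPM in WT in the Foxq1-positive cells, and this is a description with no test. A UMI of Foxq1 was found in 12.7% and 17.7% of Cdh5-positive cells in KO and in 13.5% and 15.1% in WT. In primordial germ cell-like cells, a class outside the endothelium used to gauge background, the share was 4.49% and 1.36% in KO and 0% and 0.690% in WT, although the median cell was deeper there (36470 to 57499 UMIs, against 18459 to 30925 in all Cdh5-positive cells).

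All 9 other genes were higher in Foxq1-positive than in Foxq1-negative Cdh5-positive cells of every library. The Foxq1-positive and the Foxq1-negative values of the libraries did not overlap. Spock2, Foxf2, Mfsd2a and Apcdd1 differed most, each by more than 4 on the log2 scale. Summed UMIs of the same library were compared, with the library as a block, and 22.5% of the 14501 genes tested were called higher in Foxq1-positive cells at an adjusted p below 0.05 (edgeR quasi-likelihood test, Benjamini-Hochberg). Another 25.3% were called lower. The 9 genes had a median log2 fold change of 3.23, against -0.01 over all genes tested. These genes were chosen with earlier results of these data known. Setting them against all genes, here and below, thus gives no independent support. Below, library values are given in the order KO replicate 1, KO replicate 2, WT replicate 1 and WT replicate 2.

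Among the transcription factors, Foxf2, which in the mouse acts in brain vessel pericytes and endothelium, had 18.6, 27.8, 26.6 and 24.8 CPM in Foxq1-positive cells, against 0.734, 1.08, 1.37 and 0.874 CPM in Foxq1-negative cells. KO replicate 1 was the lowest of the Foxq1-positive sums, and even so it lay far above every Foxq1-negative sum. The log2 fold change was 4.63 (SE 0.0972, edgeR adjusted p = 1.07e-22). Zic2, a zinc finger factor better known from the neural plate, had 17.2, 17.9, 17.5 and 17.2 CPM in Foxq1-positive cells, against 2.33, 1.86, 2.22 and 1.37 CPM in Foxq1-negative cells. Its 4 Foxq1-positive sums were nearly equal. Its log2 fold change was 3.23 (SE 0.110, edgeR adjusted p = 4.13e-15).

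The transporters differed by unlike amounts. Slc2a1 had 516, 537, 593 and 523 CPM in Foxq1-positive cells, against 223, 194, 208 and 199 CPM in Foxq1-negative cells. GLUT1 message was thus well measured in both sets of cells, and its log2 fold change of 1.4 (SE 0.0404, edgeR adjusted p = 4.31e-09) was the smallest of the 9. Mfsd2a, whose product carries lysolipids with omega-3 fatty acids into the brain, had 8.91, 23.7, 18.2 and 19.2 CPM in Foxq1-positive cells, against 0.872, 1.02, 0.704 and 0.519 CPM in Foxq1-negative cells. KO replicate 1 stood at less than the other 3 libraries in the Foxq1-positive cells. The log2 fold change of Mfsd2a was 4.54 (SE 0.283, edgeR adjusted p = 0.000221).

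Spock2, the secreted proteoglycan, had 16.5, 71.8, 49.6 and 61.5 CPM in Foxq1-positive cells, against 0.780, 2.46, 0.893 and 1.74 CPM in Foxq1-negative cells. It had the largest fold change of the 9 genes, a log2 value of 5.06 (SE 0.157 and edgeR adjusted p = 7.57e-06). KO replicate 1 was again the lowest, so Spock2 spread more between the Foxq1-positive sums than any of the other 8 genes relative to its mean (49.9 ± 24.0 CPM, SD, n = 4).

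The members of the Wnt pathway proper were all higher as well. Lef1 had 74.2, 77.7, 62.1 and 86.9 CPM in Foxq1-positive cells, against 26.2, 22.7, 20.2 and 23.8 CPM in Foxq1-negative cells, a log2 fold change of 1.72 (SE 0.0499, edgeR adjusted p = 1.3e-13). Nkd1, which binds Dishevelled and dampens the pathway, had 84.1, 80.5, 83.3 and 82.7 CPM in Foxq1-positive cells, against 10.0, 8.38, 9.59 and 7.91 CPM in Foxq1-negative cells. The Nkd1 sums were tight within each set (82.7 ± 1.51 CPM in Foxq1-positive and 8.97 ± 0.987 CPM in Foxq1-negative cells, SD, n = 4), and the log2 fold change was 3.23 (SE 0.0482, edgeR adjusted p = 4.13e-24). Nkd1 also has the seed match shown above.

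Axin2, a scaffold of the complex that degrades beta-catenin and a much used readout of the pathway, had 7.60, 9.74, 8.85 and 11.5 CPM in Foxq1-positive cells, against 2.78, 1.84, 2.49 and 2.27 CPM in Foxq1-negative cells. Its log2 fold change was 2.08 (SE 0.139, edgeR adjusted p = 4.98e-09). Apcdd1, a membrane protein that binds Wnt ligands and their co-receptors, had 3.91, 6.71, 4.43 and 6.49 CPM in Foxq1-positive cells, against 0.291, 0.270, 0.241 and 0.437 CPM in Foxq1-negative cells. Few molecules stand behind the lower values of Apcdd1: 14 to 48 UMIs in the Foxq1-negative cells of a library. Its log2 fold change was 4.12 (SE 0.199, edgeR adjusted p = 3.8e-15). Over all genes tested, 11.5% had all 4 Foxq1-positive sums above all 4 Foxq1-negative sums, as these 9 genes did.

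**Figure D1:**
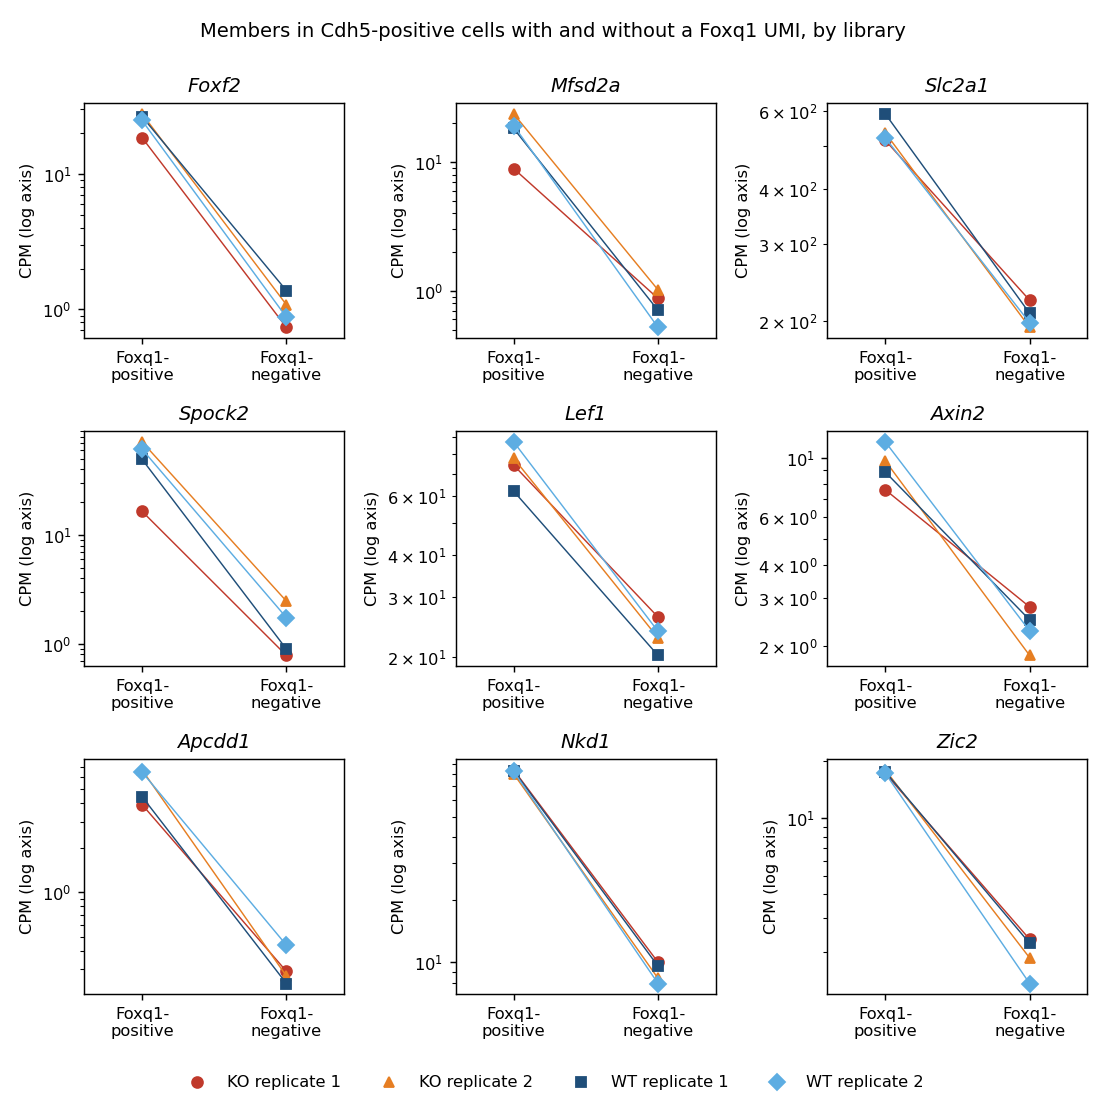
Expression in CPM (log axis) of the 9 genes other than Foxq1 in Cdh5-positive cells with a Foxq1 UMI (left) and without one (right), with 1 line for each of the 2 KO and 2 WT libraries. Every line falls to the right, and for Spock2 and Mfsd2a KO replicate 1 is the lowest Foxq1-positive point (16.5 and 8.91 CPM).

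Markers of some other cell types were lower in sum in Foxq1-positive than in Foxq1-negative cells of each library. The 7 erythroid markers summed to 39.1 to 207 CPM in Foxq1-positive and 299 to 5082 CPM in Foxq1-negative cells, and the 10 mesenchymal markers to 8.37 to 29.6 CPM in Foxq1-positive and 25.5 to 117 CPM in Foxq1-negative cells. The 8 mural cell markers summed to 14.4 to 27.6 CPM in Foxq1-positive and 35.4 to 44.2 CPM in Foxq1-negative cells. Of 7 mural markers tested, 3 were called lower and 1, Vtn (log2 fold change 1.97), higher. Of all genes, 25.3% were called lower and 22.5% higher. Vtn was low and uneven, at 1.10 ± 2.07 CPM in Foxq1-positive and 0.214 ± 0.275 CPM in Foxq1-negative cells (SD, n = 4). In the Foxq1-positive cells of KO replicate 1 it was at 0. Neural markers, 12 genes, summed to 117 to 164 CPM in Foxq1-positive and 160 to 199 CPM in Foxq1-negative sums, with Pax6, Sox1, Neurog2 and Pax3 at 0 in the Foxq1-positive cells of WT replicate 1. Stmn2 alone had a mean of 125 CPM in Foxq1-positive and 137 CPM in Foxq1-negative cells. Of 11 neural markers tested, 9 were called lower and 0 higher, while 25.3% of all genes were called lower. The 9 epithelial markers summed to 3.91 to 32.5 CPM in Foxq1-positive and 14.2 to 26.2 CPM in Foxq1-negative cells, and were higher in Foxq1-positive cells in WT replicate 1 alone. The 10 arterial markers were higher in sum in Foxq1-positive cells of each library, at 432 to 519 CPM against 283 to 361 CPM in Foxq1-negative cells, and 5 of the 10 were called higher and 0 lower. Among those called were Htra1 (log2 fold change 1.16) and Gja4 (0.91), the largest of the 10. Gja5 (0.31), Bmx (0.21), Unc5b (0.14), Efnb2 (0.01) and Nkx2-3 (-0.36) did not pass. Over all genes, 22.5% were called higher. The 7 sinusoidal or lymphatic markers were lower in sum in Foxq1-positive cells of each library (111 to 172 against 181 to 288 CPM). Of these, 6 were called lower and 1 higher. The 7 venous markers were also lower in sum in each library, with 3 called lower and 1 higher. Of 7 sprouting markers 3 were called higher and 2 lower, and of 8 endocardial markers 3 higher and 5 lower. The part of these markers in the members' difference over all Cdh5-positive cells was not tested. The 9 endothelial markers summed to 4377 to 4960 CPM in Foxq1-positive and 3755 to 3957 CPM in Foxq1-negative cells. With cells of endothelial-like clusters only, all 9 genes remained higher, with log2 fold changes from 1.28 for Slc2a1 to 5.24 for Spock2.

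Levels rose from 0 to 1 Foxq1 UMI for every gene, and less evenly with further Foxq1 UMIs. When each cell was thinned to 5000 UMIs, so that depth was equal, all 36 gene and library pairs were higher in cells with 1 Foxq1 UMI than in cells with none, and 30 of 36 were higher at 2 UMIs than at 1. From 2 UMIs to 3 or more, 24 of 36 pairs were higher, with 14 to 61 cells of a library at 3 or more. In that order of libraries, Spock2 had 1.90, 9.04, 3.11 and 4.46 CPM at 0 UMIs, 14.3, 89.9, 44.1 and 81.6 CPM at 1, 62.1, 188, 189 and 163 CPM at 2, and 87.5, 287, 286 and 275 CPM at 3 or more. Slc2a1 went up in the same order in each library, with medians over libraries of 262, 622, 856 and 996 CPM at 0, 1, 2 and 3 or more UMIs. Not every gene kept rising: the median of Apcdd1 was 11.4 CPM at 2 UMIs and 6.56 CPM at 3 or more. The mean of Nkd1 over libraries was 171 CPM at 2 UMIs and 153 CPM at 3 or more. KO replicate 1 and WT replicate 1 have 16 and 14 cells at 3 or more UMIs, and WT replicate 1 has 18 cells at 2, so single points there rest on few molecules. Foxq1 UMIs were counted after thinning, so cells at 0 can include cells that held a Foxq1 UMI before. These levels are a description with no test. The same counts were not made over all genes, so they do not set the 9 genes apart from others.

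**Figure D2:**
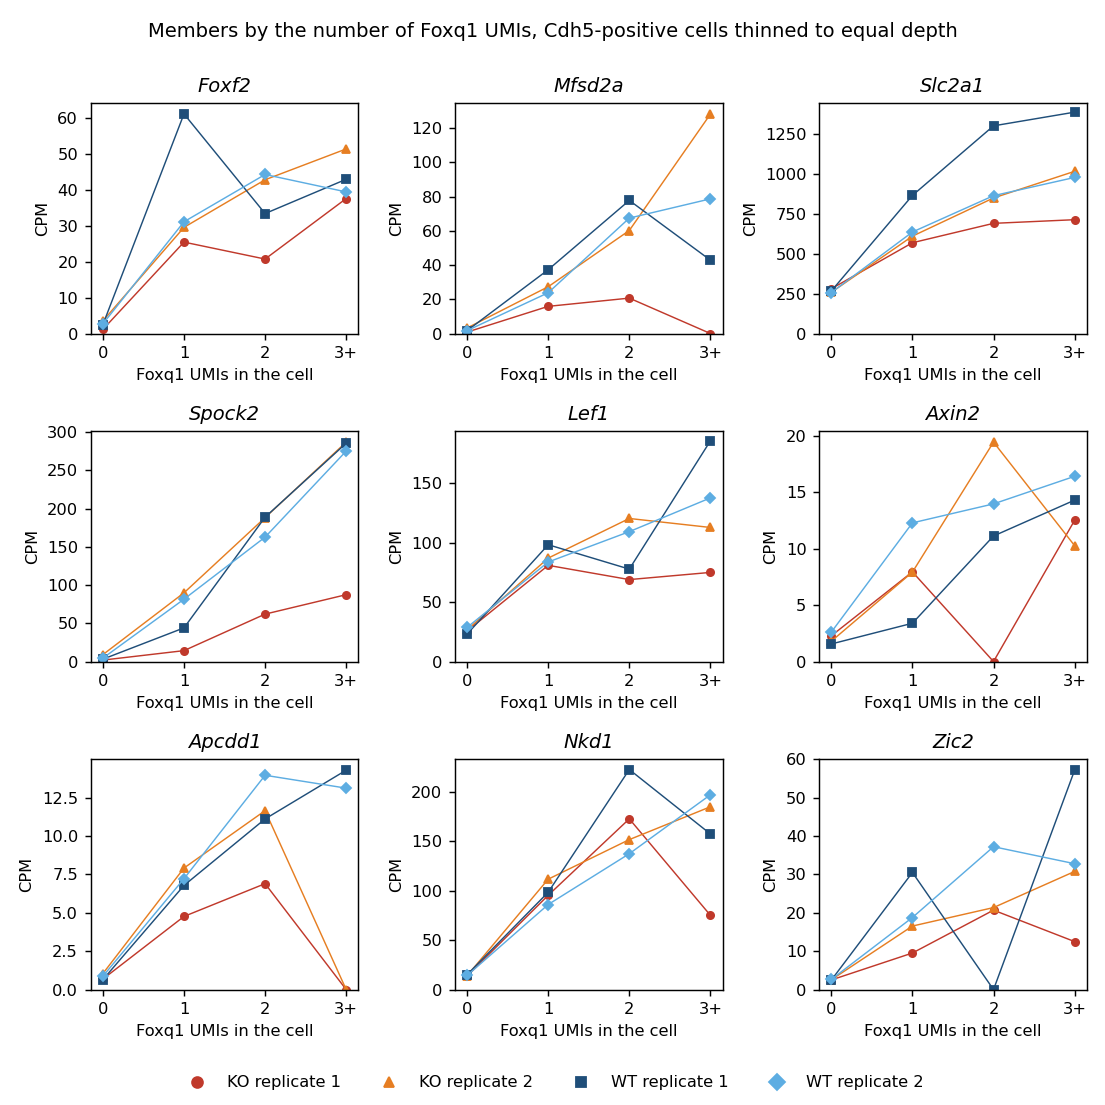
CPM of the 9 genes in Cdh5-positive cells thinned to 5000 UMIs, by the number of Foxq1 UMIs left in the cell (0, 1, 2, and 3 or more), with 1 line for each library. Levels at 1 UMI exceed those at 0 for all 36 lines, and Spock2 reaches 275 to 287 CPM at 3 or more UMIs in 3 libraries and 87.5 CPM in KO replicate 1.

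Foxq1-positive cells held more of the genes per cell. Foxq1-positive cells here are those with a Foxq1 UMI left after thinning, 171 and 420 in KO and 91 and 424 in WT. Cells left with Cdh5 but no Foxq1 UMI count as Foxq1-negative. On average, Foxq1-positive cells held 0.994 and 1.49 of the 8 genes other than Foxq1 and Slc2a1 in KO and 1.57 and 1.49 in WT. Foxq1-negative cells held 0.212 and 0.251 in KO and 0.208 and 0.246 in WT. At least 3 of the 8 were found in 9.36% and 21.7% of Foxq1-positive cells in KO and 26.4% and 20.8% in WT, against 0.456% and 1.35% of Foxq1-negative cells in KO and 0.584% and 1.22% in WT. None of the 8 was found in 38.6% and 30.5% of Foxq1-positive cells in KO and 24.2% and 28.5% in WT, against 82.0% and 80.6% of Foxq1-negative cells in KO and 82.5% and 80.7% in WT. KO replicate 1 had the fewest genes per Foxq1-positive cell. Presence together in a cell beyond each gene's own frequency was not tested.

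Clusters of cells were formed with the 10 genes and the pathway lists left out of the genes used, so that the clusters could not be built from them. Of the Foxq1-positive cells, 75.2% and 76.5% in KO and 72.1% and 76.6% in WT fell into 3 of the 24 clusters. Cluster 5 was led by Spock2, Htra3 and Igfbp7 among all genes, cluster 7 by Foxq1, Tdrp and Foxl2, and cluster 8 by Gxylt2, Tdrp and Adamtsl2. They were picked for their Foxq1 level after the data were seen, so that level is no finding. Arterial-like cells, in 2 clusters, held another 12.1% and 11.6% of Foxq1-positive cells in KO and 6.49% and 9.92% in WT.

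Within the 3 clusters, Foxq1-positive cells still exceeded Foxq1-negative cells for all 9 genes, with a median log2 fold change of 1.16, against 0.00 over all genes tested, and 13.0% of genes called higher. The folds ran from 0.34 for Axin2 (SE 0.135, edgeR adjusted p = 0.0421) to 2.16 for Spock2 (SE 0.278, adjusted p = 0.00976). Outside the 3 clusters 8 of the 9 genes were higher, with a median of 1.5, and 10.1% of genes were called higher. Lef1 was the exception there, at 0.22 (SE 0.0936, edgeR adjusted p = 0.0847), while Foxf2 was at 2.74 (SE 0.452, adjusted p = 1.33e-05) and Spock2 at 2.52 (SE 0.338, adjusted p = 3.43e-07). For all 9 genes the fold was smaller on either side of this split than over all Cdh5-positive cells.

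In arterial-like cells alone, where 0.34% of genes were called higher, 3 of the 6 genes that could be tested were called. These were Slc2a1 at 0.55 (SE 0.0559, edgeR adjusted p = 3.75e-08), Spock2 at 2.70 (SE 0.420, adjusted p = 0.000134) and Foxf2 at 2.51 (SE 0.571, adjusted p = 0.0214). Lef1 at 0.89, Mfsd2a at 0.96 and Nkd1 at 0.77 did not pass (adjusted p = 0.299, 0.664 and 0.685), and Apcdd1, Axin2 and Zic2 were too low to be tested. WT replicate 1 had 17 Foxq1-positive arterial-like cells, under the minimum of 20 cells a library set for other tests.

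**Figure D3:**
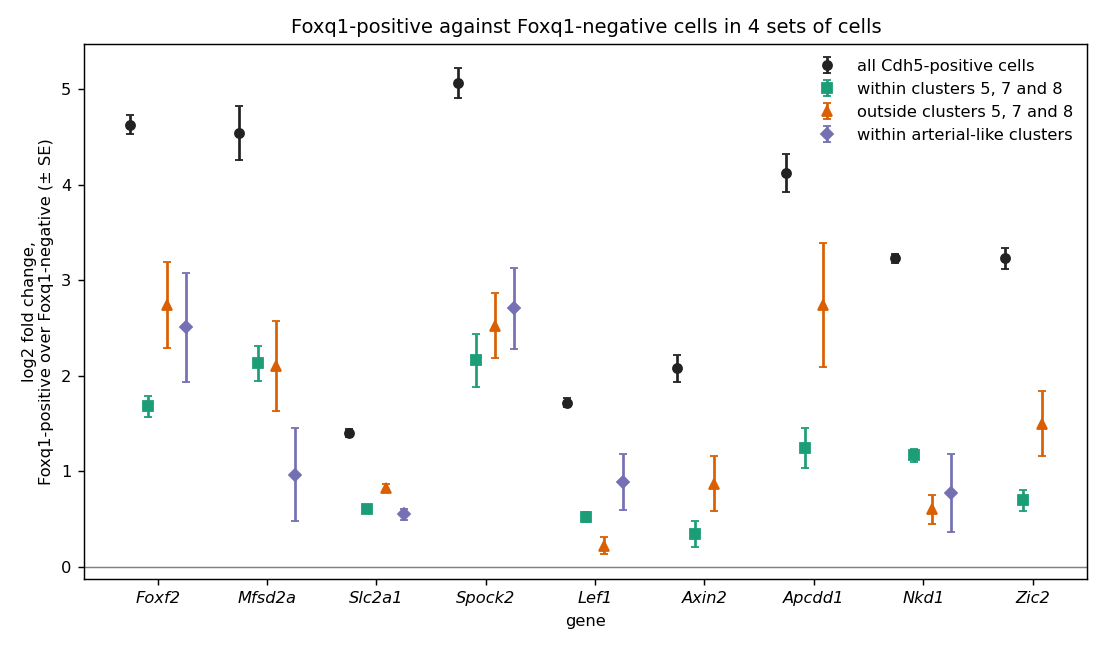
Log2 fold change of Foxq1-positive over Foxq1-negative Cdh5-positive cells (points, bars ± SE derived from the edgeR test) for 9 genes in 4 sets of cells. All 9 are above 0 in each set in which they were tested, with Spock2 at 5.06 over all cells, 2.16 within clusters 5, 7 and 8, 2.52 outside them and 2.70 in arterial-like cells.

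Across 21 classes and clusters, 7 of the 9 genes other than Foxq1 had their highest mean level in cluster 5, and Axin2 and Zic2 had theirs in mesenchymal-like cells. These orders are a description with no test, and the hemogenic-like class and cluster 23 have as few as 10 and 1 cells in a library. Foxq1 is left out of the counts that follow, since its level picked the 3 clusters. Levels were higher in cluster 5 than in cluster 7 in 30 of 36 gene and library pairs, against 50.9% of such pairs over the 14501 genes of the Foxq1 comparison, and higher in cluster 7 than in cluster 8 in 33 of 36, against 52.2%. All 9 genes were higher in cluster 5 than in each of 5 other endothelial-like clusters in each library, against 11.6% of all genes. In cluster 7, 8 of the 9 were so, against 5.88% of all genes, and in cluster 8, 8 of the 9, against 4.41%. Slc2a1 was the exception in both. Since the 9 genes were chosen with earlier results of these data known, these shares give no independent support. Over those 5 clusters, levels reached at most 0.690 CPM for Foxf2, 0.600 for Mfsd2a, 1.30 for Spock2, 0.365 for Apcdd1, 1.32 for Zic2 and 2.42 for Axin2.

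Mfsd2a and Spock2 were led by cluster 5, with neural-like cells second. Mfsd2a had 20.5, 54.0, 46.1 and 41.0 CPM in cluster 5, against 3.31, 6.15, 5.41 and 5.29 CPM in cluster 7, and these did not overlap. Neural-like cells came second at 9.35, 6.54, 12.2 and 5.18 CPM, overlapping cluster 8. Spock2 had 35.8, 154, 117 and 133 CPM in cluster 5, neural-like cells came second at 14.2, 32.0, 30.5 and 34.2 CPM, and cluster 7 followed at 7.33, 34.4, 24.9 and 34.2 CPM. Cluster 5 and neural-like cells did not overlap over all 4 libraries, whereas neural-like cells and cluster 7 did. Within every one of clusters 5, 7 and 8, KO replicate 1 had the least Spock2.

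Slc2a1 was not held to the 3 clusters. Its mean was 806 ± 94.2 CPM in cluster 5, 450 ± 74.0 in arterial-like cells, 417 ± 47.8 in cluster 7, 388 ± 55.8 in cluster 2, led by Ssu2, Igfbp3 and Esm1, and 375 ± 58.7 in cluster 8 (SD, n = 4). Cluster 5 stood clear of the next, and the 4 that follow overlapped their neighbours. Endocardial-like cells, at 26.6 to 47.2 CPM, and mesenchymal-like cells, at 35.2 to 46.2 CPM, were the lowest of the 21.

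Foxf2 stood at 36.5 ± 10.5 CPM in cluster 5, 23.8 ± 3.59 in cluster 7 and 12.5 ± 3.22 in cluster 8 (SD, n = 4). Cluster 15, led by Col1a1, Dcn and Postn and left unnamed, followed at 3.81 to 18.1 CPM, and mesenchymal-like cells at 5.78 to 9.29 CPM. Apcdd1 kept the plainest order: 6.93 to 12 CPM in cluster 5, 3.55 to 6.01 in cluster 7 and 0.904 to 3.05 in cluster 8, with no overlap between these, and no class outside the 3 clusters had a mean above 0.833 CPM.

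Lef1, Nkd1 and Axin2 were also found outside vessels. Lef1 had 84.6 to 113 CPM in cluster 5, 65.5 to 93.2 in cluster 7, 63.1 to 69.8 in cluster 8, and 50.9 to 68.8 in primordial germ cell-like cells, each overlapping the next. Nkd1 had 114 to 129 CPM in cluster 5, 74.4 to 85.3 in cluster 7 and 47.6 to 68.5 in cluster 8, and these did not overlap. Outside the vessels Nkd1 reached 22.1 to 54.1 CPM in cluster 15 and 28.0 to 46.2 in mesenchymal-like cells, where cluster 15 overlapped cluster 8 and mesenchymal-like cells overlapped cluster 15.

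Axin2 was led by mesenchymal-like cells at 17.7 to 22.0 CPM, cluster 21, which is led by Afp, Rbp4 and Alb, at 11.6 to 21.2, and neural-like cells at 8.72 to 22.9. Cluster 7 followed at 10.2 to 13.4 CPM, and all these neighbours overlapped. Zic2 had 21.2 to 29.2 CPM in mesenchymal-like cells, 20.7 to 23.9 in cluster 7 and 20.5 to 23.4 in cluster 5, so its highest 3 classes overlapped, and it stood at 10.2 to 15 CPM in neural-like cells.

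**Figure D4:**
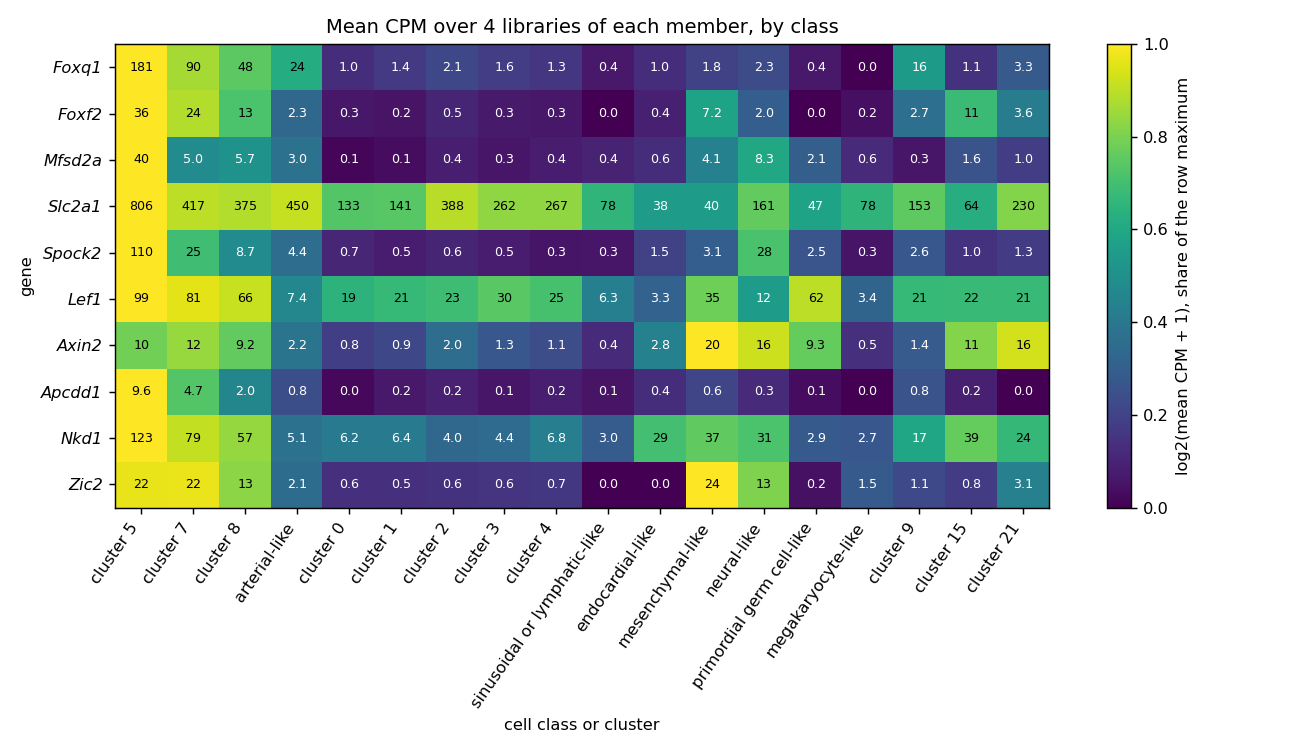
Mean CPM over the 4 libraries (numbers in the cells) of the 10 genes in classes and clusters with at least 16 cells in every library, coloured by log2(mean CPM + 1) as a share of each row's maximum. Cluster 5 holds the maximum of 7 of the 9 rows other than Foxq1, and Axin2 (20.3) and Zic2 (24.5) peak in mesenchymal-like cells.

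Over the 19 clusters with at least 20 cells in every library, the genes whose log2(CPM + 1) tracked a member best were found by Pearson's r, a description over clusters that share libraries and depth. For Foxq1 they were Aqp11 (0.911), Mal (0.902), Tsc22d1 (0.885) and Htra3 (0.885). For Slc2a1 they were Vwa1 (0.889), Tm2d3 (0.882), Filip1 (0.864) and Rassf2 (0.861). For Lef1 they were Mtcl1 (0.920), Tnfrsf19 (0.853), Tln2 (0.848) and Gm45716 (0.846). Between members, r ran from -0.154 for Slc2a1 with Axin2 to 0.920 for Spock2 with Apcdd1.

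The other genes of the pathway did not move as a block between Foxq1-positive and Foxq1-negative cells. Of 23 ligands and agonists, 11 were high enough to test and none was called higher. Over all genes, 22.5% were called higher and 25.3% lower. Lower were Rspo3 (log2 fold change -1.71), Wnt4 (-1.26), Rspo1 (-2.04), Wnt16 (-3.58) and Wnt2. Their mean levels were 3.01, 1.07, 0.209, 0.0248 and 0.466 CPM in Foxq1-positive cells, in that order. In Foxq1-negative cells they were 9.93, 2.80, 1.05, 0.479 and 1.16 CPM. Clusters outside the endothelial-like, arterial-like, sinusoidal or lymphatic-like and endocardial-like ones held 0.946% to 2.67% of a library's Foxq1-positive cells. Of its Foxq1-negative cells they held 7.70% to 14.2%. The part of those clusters in these differences was not tested. The neural ligands Wnt7a and Wnt7b were seen in neural-like cells, with 9.06, 5.09, 9.16 and 5.18 CPM of Wnt7a and 17.6, 34.9, 42.8 and 23.8 CPM of Wnt7b. In clusters 5, 7 and 8 together, Wnt7a had 0 UMIs, which allows up to 0.134 to 0.352 CPM in a library (3 counts), and Wnt7b 12 UMIs. For the list of ligands the median log2 fold change was -1.08, against -0.01 over all genes.

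Of 20 receptors and co-receptors tested, 5 were higher and 9 lower, while 22.5% of all genes were called higher and 25.3% lower. Fzd10 (1.33), Fzd6 (1.64) and Tspan12 (0.93), the last a co-activator of Fzd4 signalling, were higher, whereas Fzd4 itself (-0.42) and Lgr4 (-1.90) were lower. Reck and Adgra2, which together let endothelial cells sense Wnt7 ligands, had log2 fold changes of 0.01 and 0.03 and did not pass (edgeR adjusted p = 0.992 and 0.622). Fzd4, Reck, Adgra2 and, below, Plvap were named after their values had been seen. Among 17 transducers, 5 were higher and 6 lower, beside the same shares of all genes. Tcf7, another TCF factor, stood at 37.9 ± 1.76 CPM in Foxq1-positive and 8.61 ± 1.71 CPM in Foxq1-negative cells (SD, n = 4; log2 fold change 2.17, edgeR adjusted p = 3.73e-15), while Tcf7l1 was lower (-0.49).

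Of 23 further feedback and target genes tested, 9 were higher and 5 lower, with a median log2 fold change of 0.29. Of all genes, 22.5% were called higher and 25.3% lower. Tnfrsf19 (2.23), Tcf7, which stands in this list too, Bambi (0.52) and Dkk3 (2.97) had the smallest adjusted p among those that were higher.

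Genes of barrier transport and junctions were higher almost throughout. Of 30 tested, 26 were higher and 1 was lower, with a median log2 fold change of 1.16, while 22.5% of all genes were called higher. The iron exporter Slc40a1 stood at 46.1 ± 6.53 CPM in Foxq1-positive and 5.73 ± 1.05 CPM in Foxq1-negative cells (SD, n = 4; log2 fold change 3). The amino acid transporter subunits Slc7a5 and Slc3a2 were higher by 3.06 and 1.63, and Slc39a10, a zinc importer, by 0.84. Slc16a1, a monocarboxylate transporter, was the one called lower (-0.58). The list was chosen with earlier results of these data known and gives no independent support.

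Among 16 barrier-associated transcription factors, 8 were higher and 4 lower, while 22.5% of all genes were called higher and 25.3% lower. Foxc1 (0.77), Tbx1 (0.87) and Foxl2 (3.75) were among those higher, and Zic1, a paralog of Zic2, was among those lower (-1.93). Of 10 genes of fenestrae and vesicles, 2 were higher and 4 lower, beside the same shares of all genes. Plvap, the fenestral diaphragm protein that mature barrier vessels lack, stood at 552 ± 65.3 CPM in Foxq1-positive and 614 ± 49.0 CPM in Foxq1-negative cells (SD, n = 4; log2 fold change -0.15, edgeR adjusted p = 1.09e-05). Its message was thus present in both sets of cells.

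Over all genes, those called higher with the smallest adjusted p and a mean of at least 10 CPM were Tsc22d1 (log2 fold change 1.73), Nkd1, Tdrp (2.94), Selenop (1.43), Cdh2 (2.77), Slc40a1, Foxf2 and Mogat2 (1.57). Nkd1 and Foxf2 are thus among the first 8. Cdh2 encodes N-cadherin, which stood at 243 ± 40.4 CPM in Foxq1-positive and 35.7 ± 4.64 CPM in Foxq1-negative cells (SD, n = 4). Those lower were Fabp4 (-3.22), Ehd3 (-2.24), Ifitm1 (-2.65), the globin Hba-a1 (-4.73), Phgdh (-1.42), Dab2 (-1.12), Cd59a (-1.09) and Glipr2 (-1.28).

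Between genotypes, none of the 10 genes was called in Foxq1-positive or in all Cdh5-positive cells (edgeR quasi-likelihood test). In Foxq1-negative cells, where Foxq1 is 0 by choice, and in mesenchymal-like cells, where Apcdd1 was too low to test, none of the 9 tested was called. Few genes were called at all: 3 of 12137 in Foxq1-positive cells (0.0247%), 3 of 15330 in Foxq1-negative cells (0.0196%), 4 of 15587 in all Cdh5-positive cells (0.0257%) and 1 of 11414 in mesenchymal-like cells (0.00876%). At an unadjusted p under 0.05, 227 genes stood in Foxq1-positive cells, 215 in Foxq1-negative cells, 222 in all Cdh5-positive cells and 279 in mesenchymal-like cells, with 0 of the members tested in each set.

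In Foxq1-positive cells the log2 fold changes of KO over WT ran from -0.27 to 0.05, with a median of -0.03, against 0.00 over all genes tested. Standard errors ran from 0.128 to 0.877. For all 10 genes the KO and WT libraries overlapped, while 22.8% of all genes tested had libraries that did not. Nkd1, with its seed match, had 82.3 ± 2.48 CPM in KO and 83.0 ± 0.412 CPM in WT (SD, n = 2 each), a log2 fold change of 0.02 (SE 0.131). Fold changes come from the TMM-scaled fit, so near 0 their sign can differ from that of the CPM means. Lef1 had 75.9 ± 2.50 CPM in KO and 74.5 ± 17.6 CPM in WT (0.05, SE 0.174), and Zic2 had 17.5 ± 0.515 CPM in KO and 17.3 ± 0.211 CPM in WT (0.05, SE 0.163).

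Spock2 was the least settled. It had 16.5 and 71.8 CPM in KO and 49.6 and 61.5 CPM in WT, so the 2 KO libraries lay on either side of both WT libraries, and the log2 fold change of -0.27 had an SE of 0.877. Without KO replicate 1 it was 0.39, and without KO replicate 2 it was -1.73 (edgeR adjusted p = 2.51e-07), a call that rests on 1 KO library. Mfsd2a behaved alike, with 8.91 and 23.7 CPM in KO and 18.2 and 19.2 CPM in WT and a log2 fold change of -0.12 (SE 0.386), which was 0.36 without KO replicate 1. Cluster 5 held 34.3% and 37.9% of Foxq1-positive cells in KO and 34.4% and 38.3% in WT. The cause of the low values in KO replicate 1 was not tested.

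**Figure D5:**
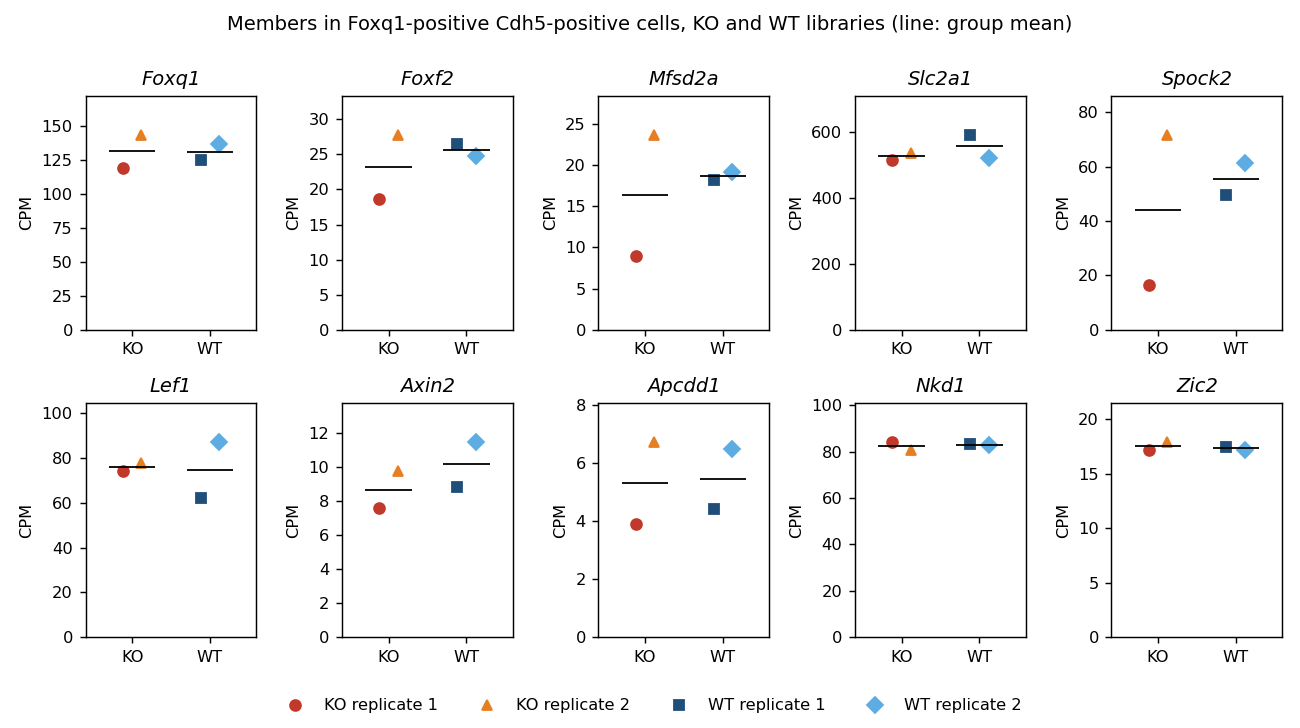
CPM of the 10 genes in Foxq1-positive Cdh5-positive cells of the 2 KO libraries (left) and the 2 WT libraries (right), with lines at the group means. The groups overlap for all 10 genes, and Spock2 spans 16.5 to 71.8 CPM in KO, around the 49.6 and 61.5 CPM of WT.

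In Foxq1-negative cells the 9 genes tested had log2 fold changes of KO over WT from -0.29 for Apcdd1 to 0.66 for Mfsd2a. Mfsd2a had 0.872 and 1.02 CPM in KO and 0.704 and 0.519 CPM in WT, which do not overlap, as for 18.3% of the 15330 genes tested, and did not pass (SE 0.340, unadjusted p = 0.0989). In mesenchymal-like cells, where the sort had not aimed, 9 genes were tested, from -0.51 for Mfsd2a to 0.64 for Foxq1, and 3 of them had KO and WT libraries that did not overlap, as had 25.7% of the 11414 genes tested. Axin2, at its highest in that class, had 17.7 and 20.4 CPM in KO and 22.0 and 20.9 CPM in WT (log2 fold change -0.13, SE 0.218).

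The genotype effect in Foxq1-positive cells minus that in Foxq1-negative cells was tested as an interaction with the library as a block. It called 1 of 14501 genes (0.0069%) and none of the 9 genes. Of the 9, 2 had an unadjusted edgeR p under 0.05, as had 571 genes in all. Mfsd2a was at -0.87 (SE 0.361) and Spock2 at -0.58 (SE 0.190), both with an edgeR adjusted p of 1. Without KO replicate 2 the value of Mfsd2a was -1.61, with an edgeR adjusted p of 0.00575.

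Foxq1-positive cells were not shown to differ in number between genotypes. Thinned to 5000 UMIs, 6.10% (95% exact binomial interval 5.24 to 7.05) and 9.04% (8.23 to 9.91) of Cdh5-positive cells held a Foxq1 UMI in KO, against 5.57% (4.51 to 6.80) and 7.72% (7.03 to 8.46) in WT. The intervals cover counting error only. In primordial germ cell-like cells thinned alike the share was 1.14% and 0% in KO and 0% and 0% in WT (of 88, 145, 45 and 144 cells in that order). The difference of the means was 0.926 percentage points (exact two-sided permutation p = 0.667, n = 2 each), in a design whose smallest possible p is 0.333. Replicates of a group differed by more than the group means did. Without KO replicate 2 the difference was -0.544, and without WT replicate 1 it was -0.148 percentage points.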

How the data were processed

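Single-cell RNA counts of 2 KO and 2 WT libraries were analysed, each library as 1 replicate. The authors deposited unnormalised UMI counts, with genes by barcodes, made with Cell Ranger 3.1.0 per the file headers. Seurat 4 is named in the submitters' processing notes with no role, with the genome build not given in the sources used here. Each cell needed 1000 detected genes or more and a mitochondrial share below 10%, after the highest-scoring cells against simulated doublets had been removed at 0.8% per 1000 barcodes (3.61% to 9.92% of a library). The data were scaled to 10000 UMIs, and 2000 variable genes, without the 10 genes and their lists, 40 principal components and 20 neighbours gave Leiden clusters at resolution 1. Clusters were named "X-like" from marker lists; the limits for names, a mean log2 fold of 1.5 or 7 of 9 endothelial markers at 100 CPM, were set after seeing the clusters, and clusters that met none stayed unnamed.

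UMI counts were summed per library and set of cells and tested with edgeR 4.0.16 in R 4.3.3 (TMM, filterByExpr, robust quasi-likelihood fit, adjusted p under 0.05), after a test on simulated counts. Each SE given was derived from that test, as the absolute log2 fold change over the square root of its F statistic. The Foxq1 comparison and the interaction had the library as a block, and Foxq1 itself was left out of both. Shares were compared in cells thinned at random to 5000 UMIs, with shallower cells left out. In thinned cells, both the Cdh5 and the Foxq1 gates were set on the UMIs left. Clustering used Python 3.11.15, scipy 1.17.1, igraph 0.11.9 and leidenalg 0.10.2. Alternatives were RLE scaling, DESeq2 1.42.0, no filter on low counts, doublets kept, a gate of 2 Foxq1 UMIs, thinned cells, endothelial-like clusters only, no library block, a replicate block and each library left out. Splits by the 3 Foxq1-rich clusters and by arterial-like clusters were added after seeing the data. Named genes are the 10 members, up to 8 higher and 8 lower genes by adjusted p with a mean of at least 10 CPM and the same direction in all 4 libraries, and up to 4 called genes of each list. The members, lists and tests were chosen with earlier results of these data known. Gene identifiers were matched to GENCODE M21 for 30934 of 31053 genes. For 1 list, the rule for named genes selects a further gene that is not reported here.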

Additional observations from a re-analysis of the deposited data

Results flagged for a closer look

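Mxra7, a gene linked to the extracellular matrix and not one of the 10, was the only gene whose genotype effect was called different between Foxq1-positive and Foxq1-negative Cdh5-positive cells. The difference of the log2 fold changes of KO over WT was -0.69 (SE 0.0942, edgeR adjusted p = 0.000956). It had 19.2 and 15.8 CPM in KO and 101 and 107 CPM in WT among Foxq1-positive cells, a log2 fold change of -2.56 (SE 0.160). Among Foxq1-negative cells it had 15.2 and 15 CPM in KO and 56.2 and 57.3 CPM in WT, a log2 fold change of -1.89 (SE 0.122). The adjusted p was 0.0922 with DESeq2 and 1 in thinned cells.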

How the results depend on the processing

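In the comparison of Foxq1-positive with Foxq1-negative cells all 9 genes kept their direction under every alternative run. All stayed past the threshold under the alternatives set out with the design; in the added splits of the cells Lef1 lost its call outside the 3 Foxq1-rich clusters, and Lef1, Mfsd2a and Nkd1 lost theirs in arterial-like cells. Over all genes the comparison called 6935 of 14501, against 3303 in thinned cells, 2699 without the library block, 3196 in the 3 Foxq1-rich clusters alone, 3443 outside them, and 54 in arterial-like cells. The median log2 fold change of all genes was -0.015 with RLE scaling and -0.008 with TMM.

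Between genotypes, counts of called genes are small and moved with nearly every choice. In Foxq1-positive cells the 3 calls became 9 with DESeq2, 52 with no filter on low counts and 16 to 63 with a library left out, where the lone library of a genotype is assumed to vary like the others. In Foxq1-negative cells the 3 became 30, 66 and 0 to 29, with 7 in thinned cells and 15 in endothelial-like clusters only. In all Cdh5-positive cells the 4 became 33, 113 and 1 to 34, with 22 in endothelial-like clusters only. In mesenchymal-like cells the 1 became 3, 25 and 4 to 119. For the interaction the 1 became 0, 58 and 2 to 99, with 5 when doublets were kept, 0 in thinned cells and 4 in endothelial-like clusters only. The cause was not tested.

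Log2 fold changes of KO over WT near 0 changed sign. In Foxq1-positive cells, thinning gave -0.091 for Foxq1, -0.14 for Lef1 and -0.60 for Zic2, a gate of 2 Foxq1 UMIs gave -0.022 for Zic2, and Apcdd1 was 0.035 with doublets kept and 0.0019 in endothelial-like clusters only. With a library left out, Foxq1 ran from -0.11 to 0.16, Foxf2 from -0.43 to 0.14, Mfsd2a from -1.04 to 0.36, Slc2a1 from -0.13 to 0.011, Spock2 from -1.73 to 0.39, Lef1 from -0.19 to 0.34, Axin2 from -0.41 to 0.039, Apcdd1 from -0.49 to 0.36 and Nkd1 from -0.018 to 0.049. In all Cdh5-positive cells, Foxq1 ran from -0.36 to 0.46, Foxf2 from -0.66 to 0.35, Mfsd2a from -0.79 to 0.67, Spock2 from -1.75 to 0.71, Lef1 from -0.059 to 0.37, Axin2 from -0.16 to 0.025, Apcdd1 from -0.56 to 0.46 and Nkd1 from -0.01 to 0.15, and Foxf2 was 0.0035 in endothelial-like clusters only. The difference in the share of Foxq1-positive cells ran from -0.544 to 2.40 percentage points. The interaction of Mfsd2a ran from -1.61 to -0.46.

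KO and WT libraries share replicate numbers, with nothing in the labels that pairs them; deviations of same-numbered libraries correlated at 0.399 over 15587 genes, with only 2 pairs. A replicate block gave 20 calls in Foxq1-positive, 31 in Foxq1-negative, 23 in all Cdh5-positive and 21 in mesenchymal-like cells, and turned Mfsd2a in all Cdh5-positive cells to -0.014. With 2 libraries a genotype, genotype differences of the size of the standard errors given were not detectable.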
